A study of Homo sapiens with 6 samples.

Results

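CD180 is a leucine-rich surface receptor related to the Toll-like receptors. It was followed here with 9 genes of the same receptor system: its partner LY86, the TLR4 co-receptor LY96, the receptors TLR1 to TLR6 and the adaptor MYD88. These 10 genes, out of 19775 with a probe set of their own, were measured by 16 probe sets in U251 cells, a human glioma line. CD180 was selected on its measured intensities, chosen by how far lower they were in cells with PARK2, the ubiquitin ligase parkin, so its difference is described without a test. The other 9 were taken by gene name, with earlier results of these data known. The arrays came from PARK2-overexpressing cells (3 arrays) and from control cells that overexpressed GFP (3 arrays). Both lines were made stable by viral infection with polybrene and puromycin selection, and whether a line is a clone or a pool is not stated in the labels. Arrays of a group are labelled biological replicates, with no separate cultures or infections named. Each p-value thus rests only on the scatter of these samples, pooled in part across genes, and that scatter may be technical.

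Toll-like receptors are sentinels that bind microbial products or molecules released by damaged cells. Their cytoplasmic TIR domain recruits adaptors, chiefly MYD88, and the signal runs through IRAK kinases and TRAF6 to NF-kB and to cytokine genes. TLR3, which senses double-stranded RNA, instead uses the adaptor TICAM1 and leads to interferon. TLR4 needs LY96 to bind lipopolysaccharide, and TLR2 pairs with TLR1 or TLR6. CD180 has an outer part like that of TLR4 but no TIR domain, pairs with LY86, and is best known from B cells and myeloid cells, where it tunes responses to lipopolysaccharide.

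Values are linear intensities per probe set, as deposited, and fold changes are differences of log2(intensity + 16), where 16 is a pseudocount that shrinks the change of dim probe sets. Array medians were 16.3 to 19.3 intensity units in PARK2 arrays and 16.7 to 18.5 in control arrays. All 7 astrocyte and glioma markers passed the filter described below, and 2 were higher and 2 lower in PARK2 cells. VIM averaged 8921 ± 523 units in PARK2 cells and 8898 ± 444 in control cells (SD, n = 3 each). S100B fell to 125 ± 5.90 units in PARK2 cells, against 366 ± 119 in control cells (log2 fold change -1.39, limma's adjusted p 9.3e-10), and SLC1A3 fell by 0.72 (adjusted p 0.000221). GFAP and SOX2 were at 0.53 and 0.30 (adjusted p 0.0107 and 0.0378), calls lost in 5 and 9 of 19 alternatives. GFAP lost its call in a further alternative, at -0.027 with its probe sets averaged (adjusted p 0.943). The part of these markers in the results that follow was not tested. Markers of B cells, measured for 5 of 6 genes, summed to 62.9 to 77.8 units in PARK2 arrays and 47.4 to 95.8 in control arrays. Those of microglia and macrophages, measured for 8 of 9, summed to 45.9 to 62.2 and 56.9 to 67.7. No marker of either list was listed at 0, both ranges overlap between the groups, and 2 of the 5 and 1 of the 8 genes had a mean above that filter.

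A filter on dim probe sets (mean log2 value over the 6 arrays at or above the 40th percentile, an intensity near 9.87) kept 12 of the 16 probe sets. TLR2 and TLR5 did not pass, nor did 1 of 3 TLR3 and 1 of 2 TLR6 probe sets. No detection call was read for any probe set, so whether a dim value stands above background is not known.

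The promoters of CD180 and TLR3, the members with the widest differences between the groups, are shown as the 250 bases before the annotated start, 5′ to 3′ on the gene's strand, from RefSeq on build GRCh38.p14. The window of CD180 is chr5:67196800-67197049, minus strand, and that of TLR3 is chr4:186068906-186069155, plus strand. RefSeq's table held 8 of the 10 members. The letters searched on both strands were GAGGAA, a PU.1-type ETS motif, the core of the interferon-stimulated response element (GAAA, any 2 bases, GAAA), a kappa-B motif (GGG, any 2 bases, TTTCC) and TATAAA. They occur in 23.6%, 3.02%, 1.73% and 10.7% of 35116 promoter windows of this length. None of these letters is in either sequence, so no base is in capitals.
CD180: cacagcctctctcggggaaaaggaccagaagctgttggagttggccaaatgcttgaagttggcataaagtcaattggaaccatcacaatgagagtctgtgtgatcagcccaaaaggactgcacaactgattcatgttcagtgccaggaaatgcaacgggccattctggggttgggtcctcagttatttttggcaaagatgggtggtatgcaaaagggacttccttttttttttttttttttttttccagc
TLR3: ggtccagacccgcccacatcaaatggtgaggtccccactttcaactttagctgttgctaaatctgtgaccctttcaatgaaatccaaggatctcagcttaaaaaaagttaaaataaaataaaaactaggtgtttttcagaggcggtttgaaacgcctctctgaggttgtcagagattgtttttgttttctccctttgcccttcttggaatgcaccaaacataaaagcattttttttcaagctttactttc
Among the other members, LY86, TLR4, TLR6 and MYD88 windows hold GAGGAA, and the MYD88 window also holds GAAAGCGAAA, which overlaps no other motif searched.

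CD180 was the member that set PARK2 and control cells apart most. Its probe set 206206_at read 13.3, 19.9 and 29.0 units in PARK2 replicates 1 to 3, against 550, 347 and 322 in control replicates 1 to 3. Every PARK2 array lay below every control array, and the dimmest control array was 11.1 times as bright as the brightest PARK2 array. Means were 20.7 ± 7.86 in PARK2 cells and 406 ± 125 in control cells (SD, n = 3 each), a control level 19.6 times the PARK2 level on the linear scale. The log2 fold change was -3.51, the fourth most negative of the 13720 genes tested. It was -4.25 with a pseudocount of 1 and -2.44 with 64. A smaller share of cells with CD180 RNA and less of it per cell cannot be told apart in RNA from whole cultures. CD180 has 1 probe set on the array, so no second probe set bears on the value.

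**Figure D1:**
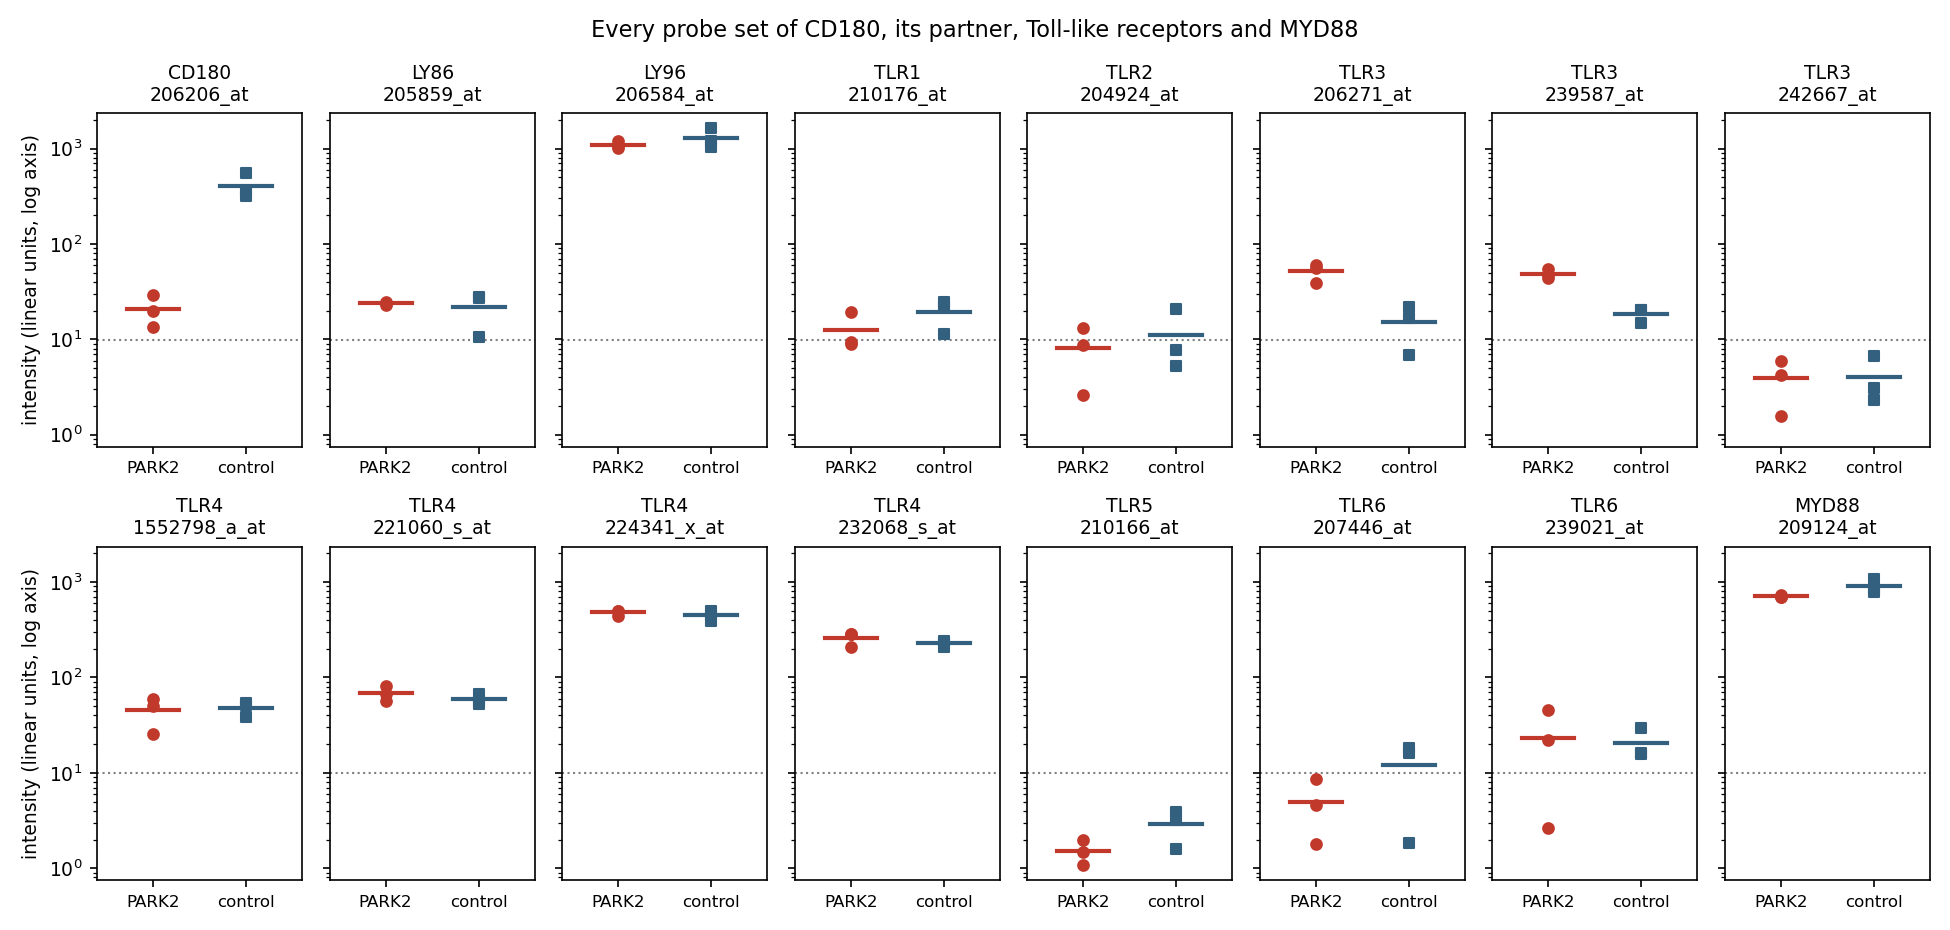
Intensity on each array (log axis, linear units) for all 16 probe sets, PARK2 arrays as circles and control arrays as squares, with bars at the group means and a dotted line at the filter's intensity of 9.87. CD180 lies at 13.3 to 29.0 in PARK2 arrays and 322 to 550 in control arrays, 2 TLR3 probe sets lie higher in PARK2 arrays, and the groups overlap in 12 of the 15 probe sets of the other genes.

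LY86, which codes for the secreted MD-1 protein that CD180 needs to reach the surface, did not share the difference of CD180. It read 22.8, 24.7 and 23.8 units in PARK2 replicates 1 to 3 and 27.6, 10.5 and 27.0 in control replicates 1 to 3. The PARK2 values lie inside the control range. The log2 fold change was 0.11 with a 95% interval of -0.36 to 0.59 (limma's adjusted p 0.795, over 26603 probe sets). Estimated array weights were the single alternative that gave a call (0.51, adjusted p 0.0282).

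TLR3, the endosomal receptor for double-stranded RNA, rose in PARK2 cells on both of its probe sets that passed the filter. Probe set 206271_at read 39.4, 55.4 and 60.5 units in PARK2 replicates 1 to 3, against 16.9, 21.6 and 6.82 in control replicates 1 to 3. Probe set 239587_at read 47.3, 44.1 and 54.7 in PARK2 arrays, against 14.7, 20.5 and 20.3 in control arrays. On both, all PARK2 arrays lay above all control arrays. The log2 fold changes were 1.14 (SE 0.22, limma's adjusted p 0.00127) and 0.91 (SE 0.19, adjusted p 0.00241). Both control means, 15.1 ± 7.56 and 18.5 ± 3.30 (SD, n = 3), were above the filter's intensity, as were the PARK2 means of 51.8 ± 11.0 and 48.7 ± 5.44. The calls held in each alternative that tested these probe sets, with adjusted p up to 0.0202, while a filter at the 60th percentile left both untested. The size depends on the pseudocount, from 0.55 to 1.82 for 206271_at and from 0.45 to 1.36 for 239587_at over all alternatives. The remaining TLR3 probe set, 242667_at, was dim at 3.90 ± 2.19 in PARK2 and 4.05 ± 2.38 in control cells, and the groups overlapped. These probe sets read the same gene and are not independent of each other.

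TLR4, the lipopolysaccharide receptor and the closest relative of CD180 among the members, had 4 probe sets, all past the filter. The brightest, 224341_x_at, read 443, 504 and 497 units in PARK2 replicates 1 to 3 and 499, 453 and 394 in control replicates 1 to 3. Next came 232068_s_at, with 207, 284 and 282 in PARK2 arrays and 241, 237 and 208 in control arrays. The groups overlapped on all 4. Log2 fold changes were 0.10, 0.15, 0.16 for 221060_s_at and -0.11 for 1552798_a_at, with adjusted p of 0.597 to 0.808. The 95% interval of the brightest was -0.21 to 0.41, so a difference of the size of that of CD180 lies outside it. The mark _x_at on that probe set means that its probes may also read other transcripts.

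LY96, which codes for the MD-2 co-receptor of TLR4, read 1214, 1003 and 1076 units in PARK2 replicates 1 to 3 and 1639, 1214 and 1050 in control replicates 1 to 3. The groups overlapped, and control replicate 1 was the brightest array. The log2 fold change was -0.22 with a 95% interval of -0.55 to 0.11 (limma's adjusted p 0.373).

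MYD88, the adaptor of all these Toll-like receptors except TLR3, read 732, 697 and 694 units in PARK2 replicates 1 to 3, against 1070, 788 and 845 in control replicates 1 to 3. All PARK2 arrays lay below all control arrays, by 1.08 times at the nearest pair. The log2 fold change of -0.33 (SE 0.14, unadjusted p 0.0340) did not pass limma's test after adjustment (adjusted p 0.121). It passed after quantile normalization (-0.30, adjusted p 0.0393) and 2% trimmed mean scaling (-0.30, adjusted p 0.0415). Without control replicate 1, the brightest array, the value was -0.20.

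TLR1, TLR2, TLR5 and TLR6, receptors for bacterial lipopeptides and, in TLR5, flagellin, were dim in both groups. TLR1 read 9.30, 19.6 and 8.85 units in PARK2 replicates 1 to 3 and 24.6, 22.6 and 11.4 in control replicates 1 to 3, a log2 fold change of -0.31 with a 95% interval of -0.81 to 0.18 (limma's adjusted p 0.413). For TLR6, 239021_at scattered widely, at 2.63, 45.6 and 21.9 in PARK2 arrays and 16.2, 29.7 and 15.7 in control arrays, with a log2 fold change of -0.03 (adjusted p 0.964). Its other probe set averaged 4.97 ± 3.41 units in PARK2 cells and 12.1 ± 8.96 in control cells. TLR2 averaged 8.15 ± 5.26 in PARK2 cells and 11.2 ± 8.34 in control cells, and TLR5 1.51 ± 0.454 and 2.89 ± 1.19 (SD, n = 3 each). The groups overlapped on all of these probe sets. TLR1 and TLR6 are close relatives in sequence, and cross-reading between them was not tested.

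Apart from CD180, 2 of 11 probe sets past the filter were higher in PARK2 cells and 0 were lower by limma at an adjusted p under 0.05, and 1 had a negative change at an unadjusted p under 0.05. Over all 26603 probe sets tested, 9.1% were higher and 11.3% lower, together 20.4%, against 18.2% of these 11. The groups did not overlap for 3 of the 11 (27.3%), against 35.1% of all probe sets tested, 19.1% with PARK2 arrays below. Taken over both directions, the called share is near that of the whole array. By direction it was 18.2% higher and 0% lower, against 9.1% and 11.3%, and both calls are probe sets of TLR3. Probe sets of 1 gene are not independent, so these shares do not set the list as a whole apart. The median log2 fold change of the 11 was 0.10, against -0.01 over all probe sets tested.

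**Figure D2:**
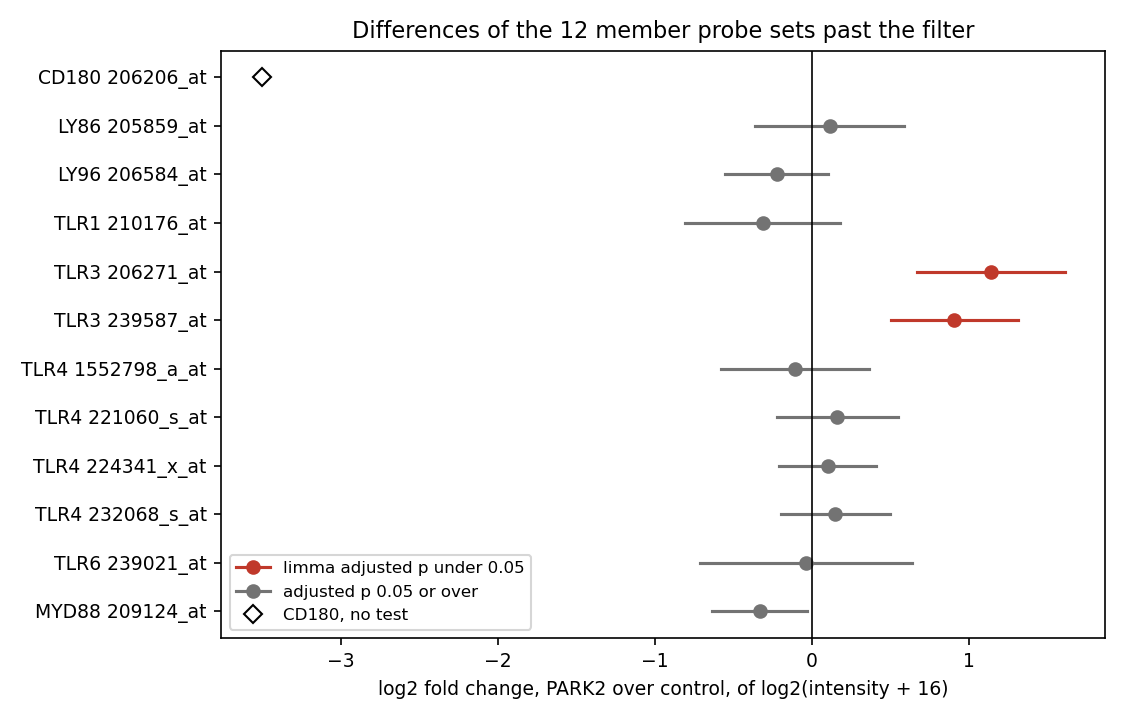
Log2 fold change, PARK2 over control, of the 12 member probe sets past the filter, with 95% intervals from limma, red where the adjusted p is under 0.05. CD180 is an open diamond at -3.51 without an interval, the TLR3 probe sets stand at 1.14 and 0.91, and the other 9 probe sets run from -0.33 to 0.16.

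The rest of the pathway was read through a list of 98 genes by role, of which 90 had a probe set of their own. By the brightest probe set per gene, 68 passed the filter, and 3 were higher and 12 lower in PARK2 cells (4.41% and 17.6%). Over the 13720 genes tested 13.3% were higher and 15.6% lower, together 28.8%, and the median log2 fold changes were -0.03 for the list and -0.00 for all genes. The counts were 8 and 12 after quantile normalization or trimmed mean scaling, and 20 and 25 with array weights. Without control replicate 1 they were 6 and 9, without control replicate 2 they were 2 and 6, and without PARK2 replicate 1 they were 2 and 7. The relatives TLR7 to TLR10 all stayed under the filter, with sums of 7.26 to 24.5 units in PARK2 arrays and 27.7 to 53.7 in control arrays.

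Among co-receptors and chaperones 0 of 4 tested genes rose and 1 fell. HSP90B1, the chaperone that folds Toll-like receptors, read 633, 2180 and 1991 units in PARK2 replicates 1 to 3 and 1265, 3462 and 3147 in control replicates 1 to 3. The groups overlapped, replicate 1 was the dimmest array in each, and PARK2 arrays stood at 0.501, 0.630 and 0.633 times the control array of the same number. The log2 fold change was -0.77 (limma's adjusted p 0.00550, and 8.8e-07 with the replicate number as a block), on an _x_at probe set, and -0.20 without PARK2 replicate 1 (adjusted p 0.526). The call was lost in 7 of 18 alternatives, averaging its probe sets among them (-0.57, adjusted p 0.120). CD14, which hands lipopolysaccharide to TLR4 and LY96, averaged 9.29 ± 2.08 units in PARK2 and 1.22 ± 0.579 in control cells, under the filter.

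No gene of 2 upstream groups passed limma's test. Of 7 tested endogenous ligands 0 passed, and the 2 with the smallest p were the proteoglycans BGN at -0.42 (adjusted p 0.205) and VCAN at -0.12 (adjusted p 0.515). Of 3 other receptors that use MYD88, the interleukin receptor genes IL1RAP and IL1RL1 were at 0.39 (adjusted p 0.0536) and 0.55 (adjusted p 0.0820). BGN, IL1RAP and IL1RL1 passed in 1, 7 and 3 of their alternatives, with adjusted p down to 0.0344, 0.00606 and 1.16e-06.

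Of 20 adaptors and kinases 1 rose and 3 fell. TAB3, which links TRAF6 to the kinase MAP3K7, read 353, 385 and 398 units in PARK2 replicates 1 to 3, against 822, 688 and 694 in control replicates 1 to 3, with no overlap. Its log2 fold change was -0.92 (limma's adjusted p 9.1e-07), and -0.34 when its probe sets were averaged (adjusted p 0.102). TIRAP, which brings MYD88 to the membrane, fell to 34.7 ± 2.42 units in PARK2 cells, against 62.2 ± 7.74 in control cells (-0.62, adjusted p 0.0112). IRAK2, a kinase of the MYD88 complex, was at -0.46 (adjusted p 0.0430, and 0.0658 with the replicate number as a block). IKBKG, the regulatory subunit of the kinase that frees NF-kB, rose by 0.54 (adjusted p 0.00904), and a near-identical pseudogene copy may share its probe set. TIRAP lost its call without PARK2 replicate 3 (-0.59, adjusted p 0.0519) or control replicate 2 (-0.56, 0.0713), and IKBKG without PARK2 replicate 1 (0.48, adjusted p 0.0604) or control replicate 3 (0.39, 0.0564). With its probe sets averaged TIRAP was at -0.38 (adjusted p 0.118), and without the filter its adjusted p was 0.0509. IRAK2 lost its call without PARK2 replicate 1 or 3 or control replicate 1 or 2, with adjusted p of 0.155 to 0.194. The IRAK2 call was also lost without the filter (adjusted p 0.178) or the intensity trend (0.0929). Its adjusted p was 0.0546 with a pseudocount of 1 and 0.0525 without _x_at and _s_at probe sets.

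Downstream, 2 of 9 inhibitors and 2 of 8 transcription factors fell, and 0 of either rose. The ubiquitin-editing enzyme TNFAIP3 averaged 101 ± 5.78 units in PARK2 cells and 150 ± 5.48 in control cells (-0.50, limma's adjusted p 0.0185), and its partner TNIP1 377 ± 26.8 and 558 ± 113 (-0.53, adjusted p 0.00601). The NF-kB subunit genes NFKB2 and RELA were at -0.60 (adjusted p 0.0345) and -0.44 (adjusted p 0.0314, and 0.0693 with the replicate block). TNFAIP3 lost its call without PARK2 replicate 1 or 2 or control replicate 2, with adjusted p of 0.0768 to 0.0811 and values of -0.50 to -0.47. NFKB2 lost it without PARK2 replicate 2 (-0.37, adjusted p 0.314) or control replicate 1 or 2 (-0.50, 0.180 and 0.153). It also lost it after quantile normalization, median centring or trimmed mean scaling (adjusted p 0.0565, 0.0525 and 0.0630), without the filter (0.165) or the trend (0.0560), and with a pseudocount of 1 (0.0511). RELA lost its call when any array but control replicate 3 was left out (adjusted p 0.0789 to 0.144), with -0.26 without control replicate 1. RELA was at -0.25 with its probe sets averaged (adjusted p 0.261). Its call was also lost without the filter (adjusted p 0.116) or the intensity trend (0.0958).

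LYN, a kinase that acts with CD180 in B cells, was the single tested gene among 5 listed partners. It read 270, 240 and 275 units in PARK2 replicates 1 to 3, against 463, 434 and 401 in control replicates 1 to 3. The groups did not overlap, and the log2 fold change of -0.69 (limma's adjusted p 0.000323) passed in every alternative run.

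Of 16 target genes tested 3 fell and 2, PTGS2 and IL1B, passed as higher with the limits given here. VCAM1, an adhesion molecule, fell to 61.8 ± 2.46 units in PARK2 cells, against 195 ± 59.3 in control cells (log2 fold change -1.39, limma's adjusted p 5.1e-09), and the chemokine gene CCL2 fell to 605 ± 71.0, against 1090 ± 294 (-0.80, adjusted p 2.5e-05). The cytokine gene IL6 read 218, 230 and 205 in PARK2 replicates 1 to 3 and 418, 341 and 219 in control replicates 1 to 3, a change of -0.50 (adjusted p 0.0191) with overlapping groups. It lost its call without PARK2 replicate 1 (adjusted p 0.0559) or 3 (0.0774), or control replicate 1 (-0.31, 0.171) or 2 (0.0998). The IL6 call was also lost without the filter (adjusted p 0.128) or the intensity trend (0.0837). PTGS2, the inducible cyclooxygenase, averaged 25.5 ± 5.05 units in PARK2 cells and 3.59 ± 3.71 in control cells, and was not tested with a pseudocount of 1 or the 60th percentile filter. All its control values lay under the filter's intensity, so it passed only through the PARK2 arrays, where it is high, and its call, counted among the higher genes, is no independent support. IL1B, named after its values were seen, was at 0.49 (adjusted p 0.0474, and 0.0641 with the replicate block). That call was lost in 10 of 19 alternatives, among them leaving out any array but PARK2 replicate 1 (adjusted p 0.0614 to 0.276). The interferon-side targets IFIT1, IFIT2 and ISG15, also named after their values were seen, were at -0.20, 0.03 and 0.39 with adjusted p of 0.430, 0.936 and 0.0652. ISG15 passed as higher in 5 of 18 alternatives (adjusted p down to 0.00584), and IFIT1 as lower in 1 of 19 (0.0236).

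**Figure D3:**
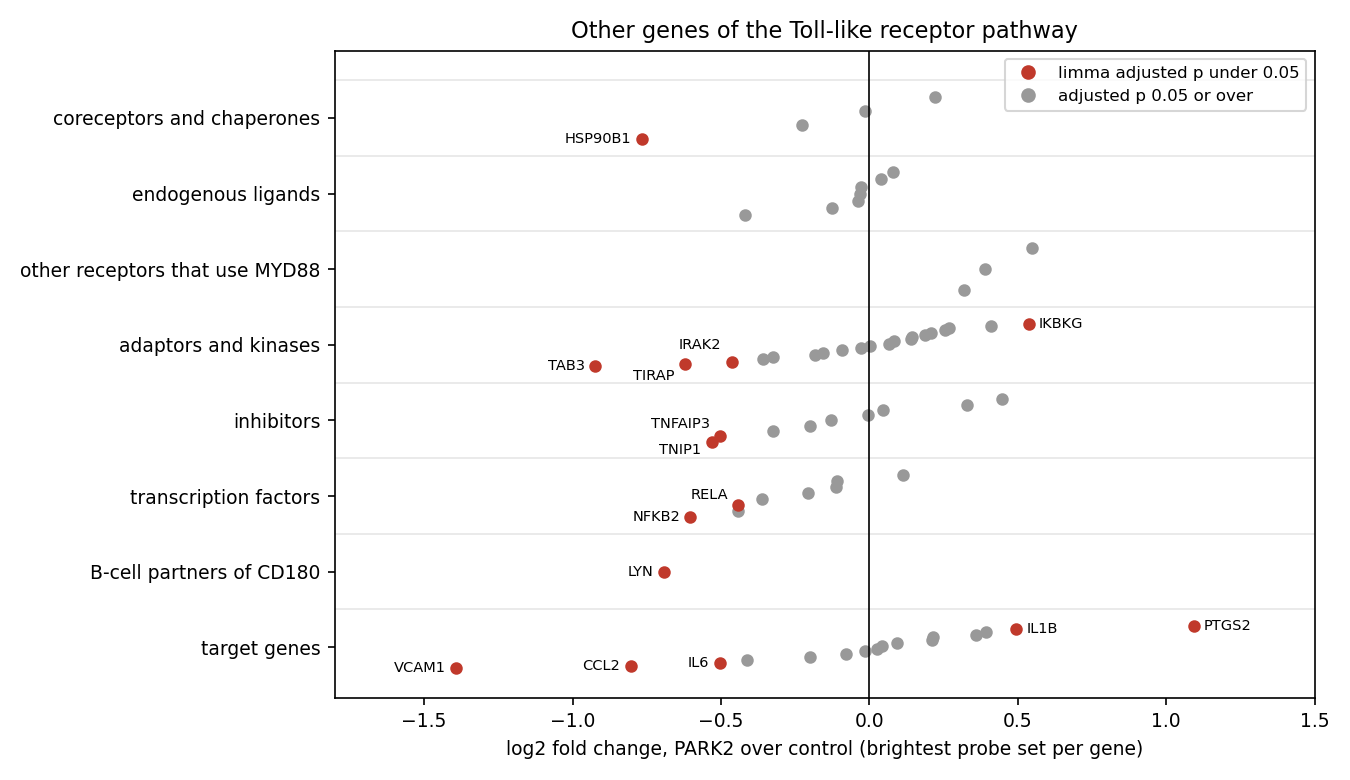
Log2 fold change, PARK2 over control, of the 68 tested pathway genes by role, each point 1 gene by its brightest probe set and red where limma's adjusted p is under 0.05. The named points run from VCAM1 at -1.39 to PTGS2 at 1.09, whose control arrays all lay under the filter's intensity, and 12 lie on the lower side against 3 on the higher side.

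The genes most like CD180 over the 6 arrays were GAP43, SERPINA3, CHST1, LGR5 and MGP. Likeness was the Euclidean distance between log2(intensity + 16) profiles, each centred on its own mean, and the distances were 0.44, 0.56, 0.57, 0.66 and 0.77. With 2 groups of 3 arrays the measure mostly ranks genes with a difference of the same size and sign, and Pearson's r with CD180 over the 6 arrays was 0.984 to 0.995 for these genes. GAP43 codes for a growth-cone protein, SERPINA3 for a protease inhibitor, CHST1 for a sulfotransferase, LGR5 for an R-spondin receptor and MGP for matrix Gla protein. CD180 spread more among PARK2 arrays than GAP43, which read 38.1, 39.8 and 48.8 in PARK2 arrays and 771, 693 and 555 in control arrays. With their probe sets averaged, the log2 fold changes were -1.77 for GAP43, -1.97 for CHST1, -2.66 for LGR5 and -2.17 for MGP, while SERPINA3 stayed at -3.49. MGP was at -0.91 without _x_at and _s_at probe sets. No other member was among the 10 nearest genes.

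**Figure D4:**
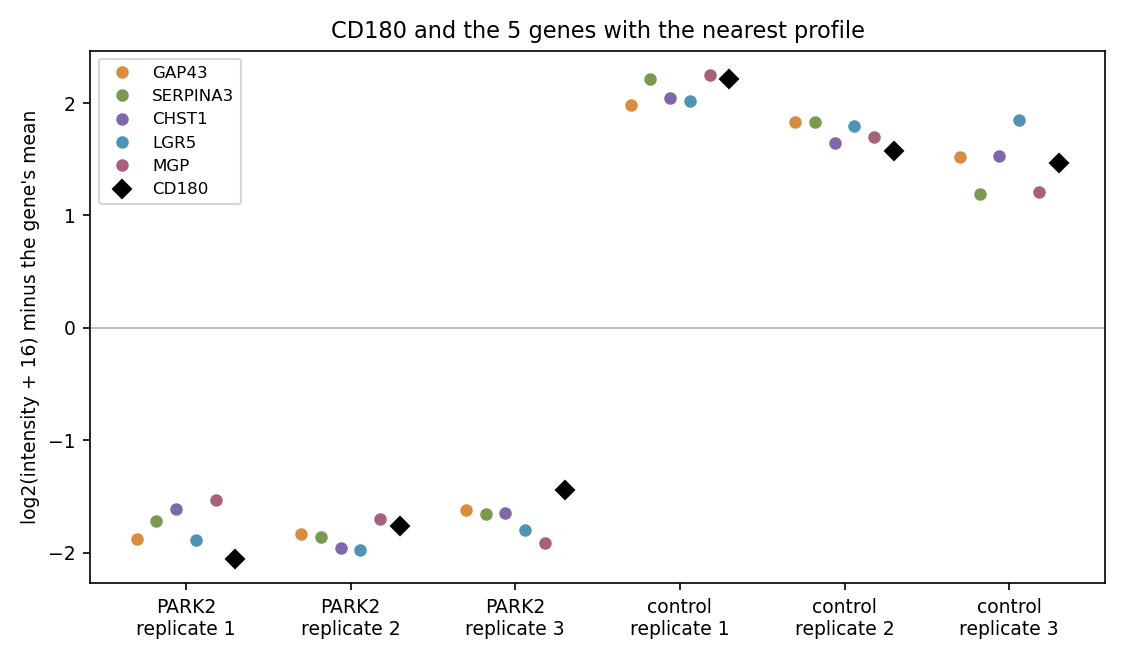
Log2(intensity + 16) minus each gene's mean over the 6 arrays, PARK2 arrays on the left and control arrays on the right, for CD180 (diamonds) and the 5 nearest genes (circles). All 6 genes lie below their mean in every PARK2 array and above it in every control array.

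Genes beside CD180 on chromosome 5 did not share its difference. In gene order, the nearest tested neighbours MAST4 and PIK3R1 were at 0.39 (limma's adjusted p 0.0910) and 0.28 (adjusted p 0.148), and SREK1 and SLC30A5 at 0.14 and 0.23 (adjusted p 0.514 and 0.244). MAST4, PIK3R1, SLC30A5 and SREK1 passed as higher in 5, 3, 4 and 1 of 19 alternatives, after quantile normalization with adjusted p of 0.0179, 0.0242 and 0.0142 for the first 3 of these genes. ERBIN was at -0.06 (adjusted p 0.759), while CCNB1, the cyclin of mitotic entry, rose by 0.48 (adjusted p 0.00192) and was at 0.21 without _x_at and _s_at probe sets (adjusted p 0.271). With its probe sets averaged CCNB1 was at 0.35 (adjusted p 0.0514). Around TLR1 and TLR6 on chromosome 4, FAM114A1, WDR19, KLHL5 and KLF3 rose by 1.05, 0.85, 0.61 and 0.51 (adjusted p 6.8e-08, 2.6e-05, 0.000333 and 0.0101). PTTG2 and KLF3-AS1 were at 0.20 and -0.15 (adjusted p 0.588 and 0.743), and TLR1 and TLR6 themselves did not pass. KLHL5 and KLF3 lost their calls as the mean of their probe sets (0.38 and 0.15, adjusted p 0.0641 and 0.499), and WDR19 without _x_at and _s_at probe sets (0.48, adjusted p 0.181). KLF3 also lost its call without PARK2 replicate 2 (adjusted p 0.0579) or 3 (0.0640) or control replicate 2 (0.0705), with values of 0.48 to 0.51. Around TLR3, looked up after its values were seen, SORBS2 was at -0.37 (adjusted p 0.0872) and CYP4V2 at 0.31 (adjusted p 0.246), while PDLIM3 fell by 0.93 (adjusted p 4.3e-05), and was at -0.40 with its probe sets averaged and -0.46 without _x_at and _s_at probe sets (adjusted p 0.0793 and 0.102). SORBS2 passed as lower in 5 of 19 alternatives and CYP4V2 as higher in 1. CFAP96, F11 and MTNR1A, also around TLR3, were at -0.04, 0.48 and 0.40 (adjusted p 0.926, 0.171 and 0.254). Control means of F11 and MTNR1A, 8.58 and 7.76 units, lay under the filter's intensity.

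**Figure D5:**
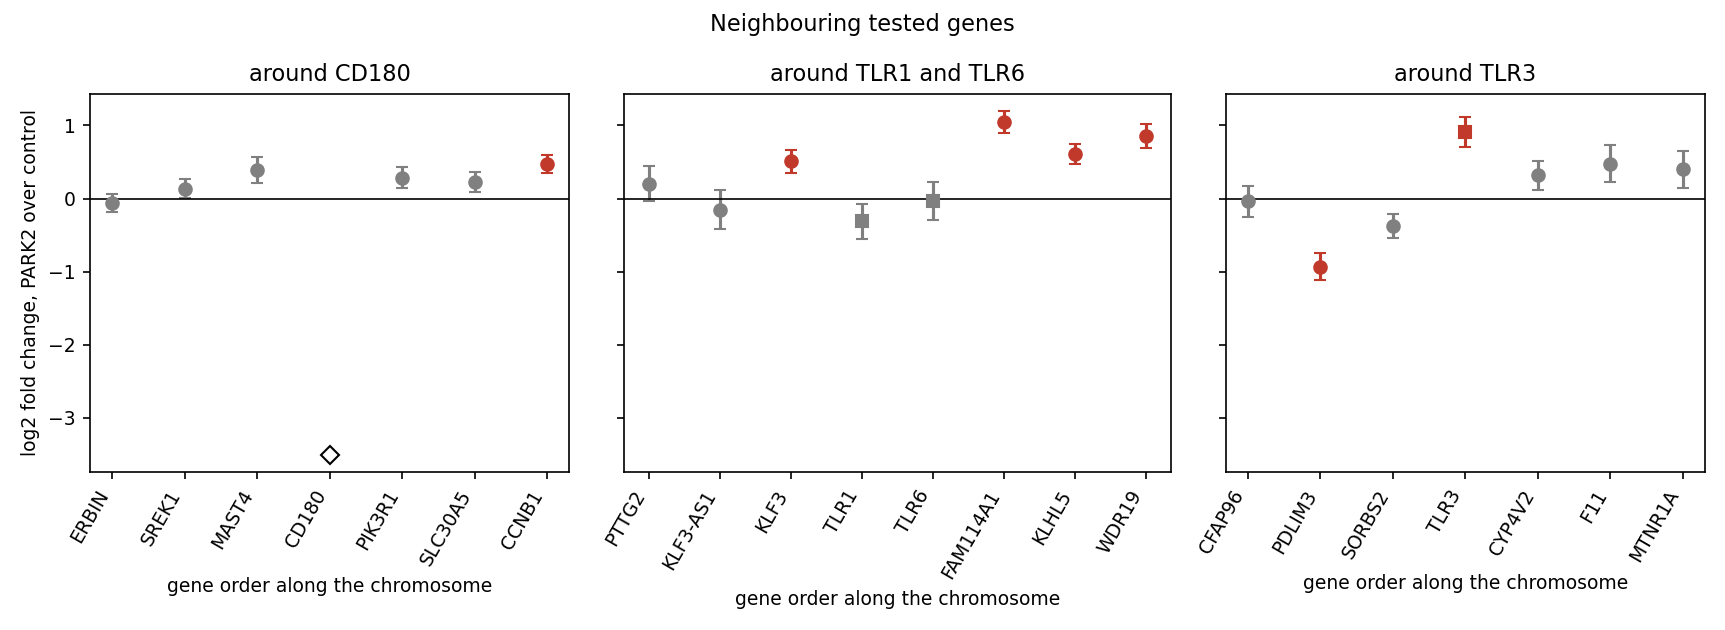
Log2 fold change, PARK2 over control, of tested genes in their order along the chromosome around CD180, around TLR1 and TLR6 and around TLR3, by the brightest probe set, members as squares, with standard errors (none for CD180, an open diamond) and red where limma's adjusted p is under 0.05. CD180 stands at -3.51 between MAST4 at 0.39 and PIK3R1 at 0.28. Of the 6 genes around TLR1 and TLR6, 4 were higher in PARK2 cells, against 13.3% of all genes tested. The calls of KLHL5, KLF3 and WDR19 among them were lost in some alternatives.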

How the data were processed

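The authors deposited a linear intensity for each of 54675 probe sets (62 of them controls) on each array. Per the submitters' processing notes, GCOS and MAS5 were used, without version or role, and how the authors scaled the arrays is not given in the sources used here. Gene names came from the platform annotation at GEO (41091 probe sets with 1 symbol, 1801 with several, 11721 with none), with gene numbers looked up in RefSeq's GRCh38.p14 table, which updated 0 symbols.

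From these values log2(value + 16) was computed without further normalization. Control probe sets, those without a single gene and those under the filter were left out. The remaining 26603 were fitted with limma (version 3.58.1 in R 4.3.3; group as the single term, intensity trend, Benjamini-Hochberg adjustment at 0.05). Markers, pathway genes, neighbours and likeness used the brightest probe set per gene (13720 genes), and adjusted p is from the matching fit. Rose and fell are used of values past the threshold. The fit draws each variance toward that of probe sets of like intensity, with 13.7 prior degrees of freedom against 4 residual in the fit of probe sets. The fit of 1 probe set per gene drew more on other genes, and its prior degrees of freedom are not given here. There TLR3 239587_at had a larger SE (0.21 against 0.19) but a smaller unadjusted p by limma (5.3e-05 against 0.000184). The p-values of markers, pathway genes and neighbours come from that fit. An adjusted p can therefore be small where a gene's own arrays scatter widely. HSP90B1 had overlapping groups and limma's adjusted p of 0.00550, and 0.199 without the intensity trend. With 3 arrays a group, the number of arrays limits precision.

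The members and lists were chosen with earlier results of these data known. Named genes were all members, up to 4 genes per role past the threshold with the largest change (otherwise the 2 with the smallest p), the 5 genes nearest to CD180, and 3 tested genes on each side of CD180 and of the TLR1 cluster. No arrays were duplicates: correlations were 0.984 to 0.988 within and 0.969 to 0.973 between groups. Deviations from the group mean correlated most between the arrays numbered 1 (r across probe sets of 0.401). For replicates 2 and 3, arrays of the same number (0.179 and 0.130) were much like crossed pairs (0.162 and 0.115). Pairs of replicate 1 with another number ran from -0.284 to -0.204. Deviations cancel out within a group, so these negative values are not separate evidence. The labels state no pairing, and the values set apart replicate 1 only. A fit with a replicate block was run as an alternative. The limma step was tested on simulated arrays of 13720 genes for PARK2 against control cells. It recovered 41.8%, 94.0% and 100% of genes changed by 1.5, 2 and 4 times, with 4 false calls. These shares are not split by intensity. They do not apply to dim members such as LY86, TLR1 and TLR6, whose changes the pseudocount shrinks.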

Additional observations from a re-analysis of the deposited data

How the results depend on the processing

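Of the member probe sets tested, MYD88 and LY86 changed their side of the threshold and the others did not in any alternative that tested them, and CD180 stayed negative throughout. CD180 was at -4.25 with a pseudocount of 1, -2.44 with 64, and -3.66 to -3.28 without 1 array. Counts of other member probe sets were 2 higher and 0 lower without any 1 array. With the 60th percentile filter 0 were higher, since the TLR3 probe sets were not tested there (for the whole array 2243 higher). By the brightest probe set or the mean of probe sets, which leave 1 value per gene, 1 was higher, and 1 was lower after quantile normalization or trimmed mean scaling. Pathway genes higher were 5 with the 60th percentile filter or median centring, 1 with a pseudocount of 1, 7 by the mean of probe sets, 8 after quantile normalization or trimmed mean scaling, 20 with array weights, and 2 to 6 without 1 array. Pathway genes lower were 6 without the filter, without _x_at and _s_at probe sets or at an adjusted p of 0.01, 7 without the intensity trend, 25 with array weights, and 6 to 14 without 1 array. Over all probe sets, 3704 were higher after quantile normalization, 3735 after trimmed mean scaling, and 5905 higher and 5352 lower with array weights, whose estimate did not fully converge. The numbers were 1461 and 1884 by the mean of probe sets, 1433 and 1733 at an adjusted p of 0.01, and 1830 lower without _x_at and _s_at probe sets. Without 1 array, 1529 (without PARK2 replicate 3) to 3635 (without control replicate 1) were higher and 2166 to 3175 lower. Of calls, 44.7% were higher as deposited, 50.6% after trimmed mean scaling, 52.5% with array weights, 58.6% without control replicate 1, 39.1% without PARK2 replicate 3 and 35.4% without control replicate 3. KLF3-AS1 turned to 0.52 with array weights, and GFAP to -0.027 by the mean of probe sets. The replicate block ended the calls of IRAK2, RELA and IL1B and changed no other call among the members and the named genes for which it was run. The cause of these shifts was not tested. The number of arrays and low intensity limit what LY86, TLR1, TLR2, TLR5 and TLR6 can show.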
